A study of Mus musculus with 2 samples.

Results

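The microRNA (miRNA) genes Mir103-1, Mir103-2 and Mir107 lie in introns of pantothenate kinase genes and were followed in the embryonic mouse limb. They were chosen by gene symbol and not by a rule on their values, but earlier results of these data were known. They are 3 of the 1973 miRNA genes with a row in the count tables. The data are microRNA-seq of limb tissue from B6NCrl mouse embryos (Mus musculus) collected on embryonic day 15.5, made from total RNA with fragments shorter than 30 nt. There was 1 group with 2 biological replicates, a pool of limbs from 78 embryos (replicate 1) and a pool from 62 embryos (replicate 2). Both sexes were mixed in each pool and the mice were described as healthy. No second tissue, age or treatment was available for comparison, so the levels are described and the 2 libraries are set against each other. A pool gives no spread between embryos, and in whole tissue fewer cells of a type and less RNA per cell cannot be told apart.

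Pantothenate kinases catalyse the rate-limiting step in the synthesis of coenzyme A, the carrier of acyl groups in lipid and energy metabolism. Their intronic miRNAs, miR-103 and miR-107, are closely related, are conserved among vertebrates, and are best known for effects on insulin sensitivity through caveolin-1 and for repression of Dicer, the enzyme that cuts miRNA precursors. A miRNA precursor folds into a hairpin with a 5′ arm (5p) and a 3′ arm (3p), and for this family the 3p arm is the form usually called miR-103 or miR-107. The seed, bases 2 to 8 of the mature miRNA, does most of the pairing with messenger RNAs.

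The mature sequences decide which reads can be assigned to a single gene of this family, and so are given before the counts. RefSeq (GRCm38.p6) held precursors and mature forms for 3 of the 3 genes. They are written 5′ to 3′ with the seed in capitals.
miR-103-3p, from Mir103-1 and from Mir103-2: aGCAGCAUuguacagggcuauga
miR-107-3p, from Mir107: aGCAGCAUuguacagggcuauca
miR-103-1-5p: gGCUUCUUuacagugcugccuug
miR-103-2-5p: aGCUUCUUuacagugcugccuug
miR-107-5p: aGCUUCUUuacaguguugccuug
All of them are 23 bases long. Counted from 1 at the 5′ end, miR-103-3p and miR-107-3p differ by G22C alone, and miR-103-3p is the same in both of its genes. The 5p forms of Mir103-1 and Mir103-2 differ by G1A, and those of Mir103-2 and Mir107 by C16U. The 3p forms share the seed GCAGCAU, which no other mature miRNA of the RefSeq table has, and the 5p forms share the seed GCUUCUU, likewise found in these genes alone.

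The whole precursors show where the genes differ outside the mature arms, which are in capitals.
Mir103-1 precursor: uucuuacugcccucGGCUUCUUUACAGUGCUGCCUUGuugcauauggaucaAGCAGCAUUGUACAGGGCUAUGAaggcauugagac
Mir103-2 precursor: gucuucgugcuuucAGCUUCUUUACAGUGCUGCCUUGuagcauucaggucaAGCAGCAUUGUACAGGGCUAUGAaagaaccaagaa
Mir107 precursor: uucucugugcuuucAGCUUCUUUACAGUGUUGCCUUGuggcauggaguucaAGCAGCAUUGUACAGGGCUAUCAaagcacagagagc
The 2 Mir103 precursors have 86 bases and that of Mir107 has 87. In global alignments the Mir103-1 precursor was identical to that of Mir103-2 at 69 of 86 positions (80.2%) and to that of Mir107 at 70 of 87 (80.5%). Mir103-2 and Mir107 were the most alike, with 73 of 87 positions (83.9%). The longest run shared by the Mir103 precursors was 27 bases, from base 49 to base 75, and covers the whole 3p arm. The run that either of them shares with Mir107 was 24 bases, from base 49 to base 72, and ends just before the base that differs.

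The tables have a separate line for reads with several alignments. If such reads entered no gene, the sequences limit what the counts can hold, but the counter and its settings are not given in the sources used here. Among the 2202 miRNA precursors of GENCODE M21, a read of exactly miR-103-3p occurs in 2, Mir103-1 and Mir103-2. A read that starts at base 1 of miR-107-3p occurs in 3 precursors at lengths of 18 to 21 bases and in Mir107 alone at 22 and 23 bases. The 5p reads from base 1 occur in 1 precursor each at all lengths from 18 to 23 bases. From base 2 on, the 5p reads of Mir103-1 and Mir103-2 are common to both, while those of Mir107 stay with 1 precursor. The tables do not split counts by arm or read length, so which of these reads made up each count is not known from them. How many mismatches the alignment allowed is not given in the sources used here.

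Over whole precursors, 55 of the 67 stretches of 20 bases in Mir103-1 were found at 1 place among the precursors (82.1%), where overlapping precursors count as 1 place. For Mir103-2 it was 51 of 67 (76.1%) and for Mir107 59 of 68 (86.8%). Inside the 3p arm, 0 of 4 stretches were found once in either Mir103 gene and 2 of 4 in Mir107. Inside the 5p arm, 1 of 4 was found once in each Mir103 gene and 4 of 4 in Mir107. Of the 340 miRNA genes detected in the limb, meaning at least 10 counts in both replicates, 262 had every stretch found once. Lower shares than Mir103-2, Mir103-1 and Mir107 were found for 9, 12 and 20 of the 340. Gm23935, named after its values were seen, was the 1 detected gene with no stretch of its own, and it still had 412 and 381 sense counts.

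**Figure D1:**
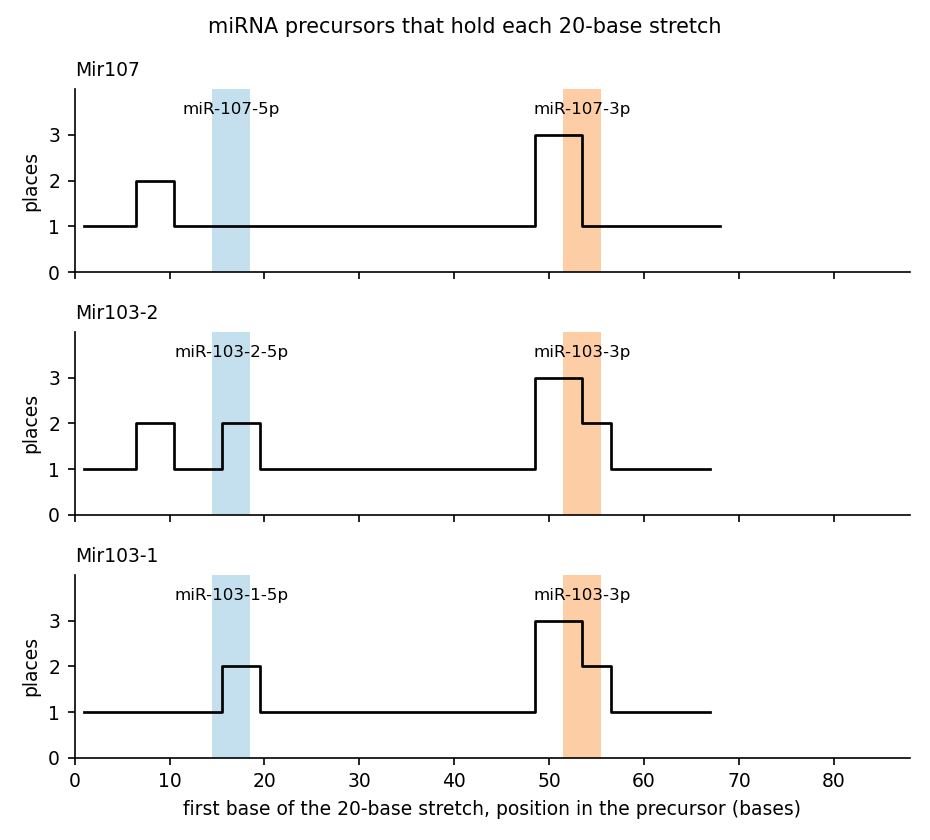
Number of places among the miRNA precursors (vertical axis) that hold the stretch of 20 bases starting at each base of the precursor (horizontal axis), for Mir107, Mir103-2 and Mir103-1. Shading marks the 4 stretches that lie wholly inside each mature arm: the line is above 1 over all of the 3p shading in both Mir103 genes and over 2 of its 4 stretches in Mir107.

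By the reads assigned to genes, Mir107 was the leading gene of the family in the limb, Mir103-2 was far below it and Mir103-1 was close to the lower limit of detection. Counts are sense reads, which follow the strand of the gene, and levels are CPM, a gene's sense counts divided by those of all miRNA genes in its library and multiplied by 1000000. The precursors are of nearly equal length, so levels were not divided by length.

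In replicate 1, 4286 sense counts gave Mir107 a level of 1005 CPM (Wilson 95% interval 976 to 1036). In replicate 2, 5580 counts gave it 1083 CPM (1055 to 1112). Its mean was 1044 ± 55.1 CPM (SD, n = 2), which ranked 97 among the 340 detected genes. It thus stood in the upper part of the detected miRNAs, whose median was 167 CPM.

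Mir103-2 had 237 sense counts in replicate 1, or 55.6 CPM (48.9 to 63.1), and 294 in replicate 2, or 57.1 CPM (50.9 to 64.0). Its mean was 56.3 ± 1.05 CPM (SD, n = 2), at rank 218. Its level lay below the median of the detected genes in both libraries.

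Mir103-1 had 19 sense counts in replicate 1, or 4.46 CPM (2.85 to 6.96), and 24 in replicate 2, or 4.66 CPM (3.13 to 6.93). Its mean was 4.56 ± 0.143 CPM (SD, n = 2), at rank 311. The level that a count of 0 would still allow, 3 counts, was 0.704 CPM for the replicate 1 library and 0.582 CPM for the other, so the gene was above that limit in both. That limit covers counting only, and whether reads of the near-identical genes entered the 19 and 24 counts was not tested. All intervals cover counting error only and treat reads as independent. No source used here mentions molecular identifiers, so copies of a molecule could not be told from separate molecules.

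The order Mir107, Mir103-2, Mir103-1 was the same in both libraries, with no overlap between neighbouring intervals. In replicate 1 Mir107 had 18.1 times the counts of Mir103-2 (exact 95% interval 15.9 to 20.7), and in replicate 2 19.0 times (16.9 to 21.4). Mir103-2 had 12.5 times the counts of Mir103-1 in replicate 1 (7.81 to 21.1) and 12.2 times in replicate 2 (8.07 to 19.4). The proportions between the genes were therefore close in the 2 pools, and the ratio of each pool lay within the counting interval of the other. Of the counts of the 3 genes, 94.4% fell to Mir107 in replicate 1, with a Wilson 95% interval of 93.65 to 94.998. In replicate 2 this share was 94.6%, with an interval of 94.0 to 95.2. Mir103-2 held 5.22% and 4.98%, and Mir103-1 0.418% and 0.407%. These are shares of the reads given to these genes, and Mir107 is also the gene with the most stretches of its own. Inside the 3p arm, 2 of 4 stretches were found once in Mir107 and 0 of 4 in either Mir103 gene. If reads with several alignments entered no gene, reads of exactly miR-103-3p are in neither Mir103 count. Reads of miR-107-3p from base 1 at 22 and 23 bases could still be in the Mir107 count. Whether the 3 genes make miRNA in these proportions was not tested.

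**Figure D2:**
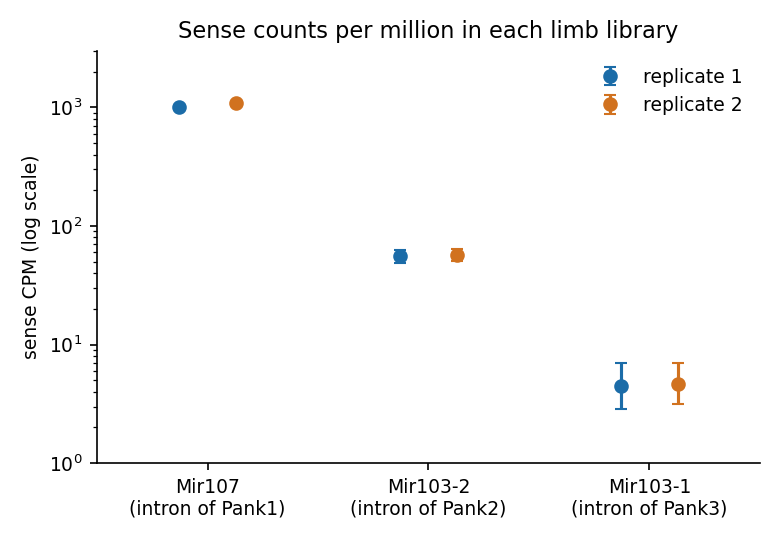
Sense CPM on a log axis for Mir107, Mir103-2 and Mir103-1 in the 2 limb libraries, with points for single libraries and bars for Wilson 95% intervals of counting error. The genes form 3 separate levels, near 1044, 56.3 and 4.56 CPM, and the replicates of each gene lie side by side.

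Together the family had 4542 sense counts in replicate 1 and 5898 in replicate 2, out of 4263630 and 5151214 over all miRNA genes. That was 0.107% for replicate 1, with a Wilson 95% interval of 0.103 to 0.110, and 0.114% for replicate 2, with an interval of 0.112 to 0.117. The line of reads with several alignments held 2696741 and 3224256 reads, or 29.4% and 29.7% of all reads, which is 594 and 547 times the counts of the family. Reads of exactly miR-103-3p have 2 places among the precursors and, where counted as such, may be in that line. The family total therefore says nothing firm about the abundance of miR-103.

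No antisense count was found at any of the 3 genes in either library. For Mir107 this allows an antisense share of up to 0.0700% of its counts in replicate 1 and 0.0538% in replicate 2. For Mir103-2 it allows up to 1.27% and 1.02%, and for Mir103-1, with few counts, up to 15.8% and 12.5%. An antisense count of 0 in both libraries was common, being found for 307 of the 340 detected genes. GENCODE M21 has no gene on the other strand at any of the 3 positions.

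Between the pools, Mir107 was slightly higher in replicate 2 and the Mir103 genes did not pass the test. Each detected gene was tested with an exact two-sided binomial test of its counts in the 2 libraries, given their totals, with Benjamini-Hochberg adjustment over all 340. This compares 2 libraries and not conditions, and 173 genes passed an adjusted p of 0.05, which is 50.9% of those tested. Mir107 was 1.08-fold higher in replicate 2 (95% interval 1.04 to 1.12), a log2 ratio of 0.11 with an adjusted p of 0.00058 in the exact binomial test. With 1 of the 3 genes past the threshold, the family's share was not above this background. Mir103-2 had a log2 ratio of 0.04 (95% interval -0.21 to 0.29, adjusted p = 0.876, exact binomial test). Mir103-1 had a log2 ratio of 0.06 (-0.87 to 1.01, adjusted p = 1, exact binomial test), an interval that leaves room for a 2-fold difference in one direction and nearly that in the other.

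As point estimates the 3 ratios were small for this pair of libraries. The median size of the log2 ratio over the detected genes, regardless of sign, was 0.21. The intervals of Mir103-2 (-0.21 to 0.29) and of Mir103-1 (-0.87 to 1.01) reach that size. Smaller ratios were found for 31 genes in the case of Mir103-2, for 51 in the case of Mir103-1 and for 95 in the case of Mir107. The median ratio of all detected genes was 0.02, so the scaling itself was close to even. Among the marker genes of limb cells, Mir206, a miRNA of muscle fibres, had 11050 CPM in replicate 1 and 4787 in replicate 2, and Mir133b, also of muscle, had 84.2 and 41.9. Other limb markers moved less and in both directions. The log2 ratio was 0.19 for epidermal Mir203, 0.10 for epidermal Mir205 and 0.08 for endothelial Mir126a. It was -0.05 and -0.21 for the cartilage genes Mir140 and Mir455. The Hox cluster genes ran from -0.07 for Mir196a-1 to 0.35 for Mir196b. The part of these markers in the ratio of Mir107 was not tested.

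**Figure D3:**
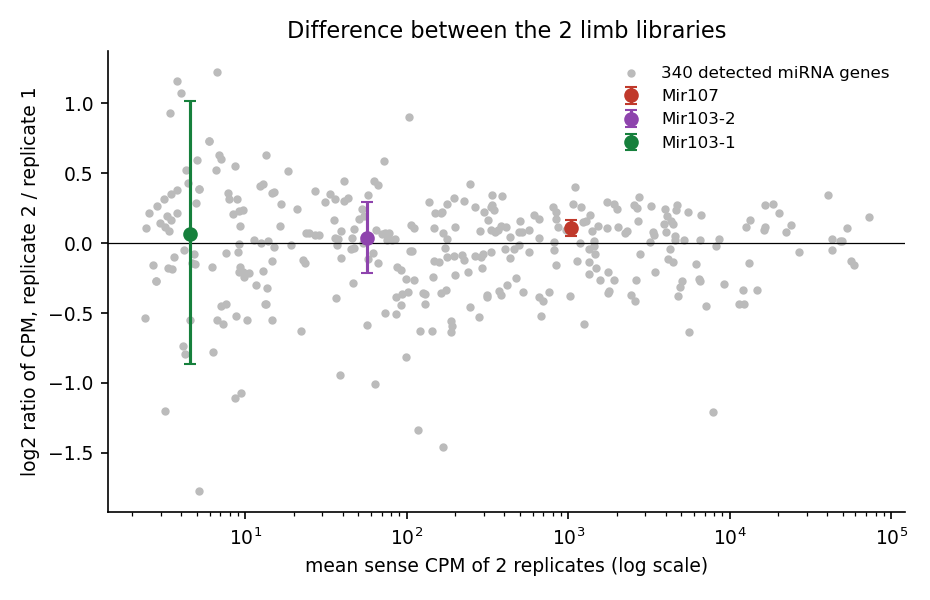
Log2 ratio of CPM, replicate 2 over replicate 1, against mean CPM on a log axis for the 340 detected miRNA genes (grey), with Mir107, Mir103-2 and Mir103-1 in colour and bars for exact 95% intervals. The 3 genes lie near 0, and the interval widens from Mir107 to Mir103-1 as the counts fall.

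The 3 genes have like positions in their hosts. In mm10 coordinates, Mir107 (ENSMUSG00000065594.1) spans 34820687 to 34820773 of chromosome 19 on the minus strand, within an intron of Pank1. Mir103-2 (ENSMUSG00000065563.1) spans 131288052 to 131288137 of chromosome 2 on the plus strand, within an intron of Pank2. Mir103-1 (ENSMUSG00000065553.1) spans 35782396 to 35782481 of chromosome 11, also on the plus strand, within an intron of Pank3. All are on the strand of their host and overlap no annotated exon of it.

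In the coding transcripts of the hosts with 7 exons, each miRNA gene is in intron 5. The shorter coding transcripts Pank1-204, with 6 exons, and Pank2-203, with 4, place the same positions in introns 4 and 2. Intron 5 is 7282 bases long in Pank1, 5801 in Pank2 and 1740 in Pank3. The miRNA gene starts 326 bases after the upstream exon in Pank1, 454 in Pank2 and 688 in Pank3, so each is nearer to the upstream exon than to the downstream one. The order of the counts runs with the length of that intron and against the distance to the exon, but with 3 genes this is a description only. The counts are of reads assigned to genes, and whether the genes make miRNA in that order was not tested. Pank4, the remaining gene of that name series, has no miRNA gene within it in GENCODE M21.

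None of the 3 belongs to a cluster of miRNA genes. The nearest other annotated miRNA gene is 70.1 kb from Mir107, 165 kb from Mir103-1 and 248 kb from Mir103-2. Of 518 intronic miRNA genes with no other within 10 kb, 93 were detected in the limb (17.95%), with a median of 47.3 CPM. Mir107 lay well above that median, Mir103-2 near it and Mir103-1 below it. Over the 518 genes the median share of stretches found once was 100%. It was 86.8% for Mir107, 82.1% for Mir103-1 and 76.1% for Mir103-2, so the levels are not measured alike. The messenger RNAs of the Pank genes were not analysed here, so the hosts' own levels in the limb cannot be set beside these values.

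The miR-103 and miR-107 genes are commonly grouped with the miR-15 and miR-16 genes and their relatives by the motif AGCAGC near the 5′ end of the mature form. The 5p forms of these relatives are shown for the register of the motif, with the seed in capitals.
miR-15a-5p: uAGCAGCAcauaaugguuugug
miR-15b-5p: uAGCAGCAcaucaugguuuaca
miR-16-5p, from Mir16-1 and from Mir16-2: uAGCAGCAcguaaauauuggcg
miR-195a-5p: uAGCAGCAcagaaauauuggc
miR-322-5p: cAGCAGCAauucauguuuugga
miR-503-5p: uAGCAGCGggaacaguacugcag
In these the motif begins at base 2, while in miR-103-3p and miR-107-3p it begins at base 1, so the seeds are offset by 1 base. In the RefSeq table, 13 of 1679 mature miRNAs (0.774%) have AGCAGC beginning at base 1 or 2, and the 2 that begin at base 1 are miR-103-3p and miR-107-3p. The seed AGCAGCA was held by 10 mature miRNAs, and AGCAGCG by miR-503-5p alone.

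By the reads assigned to genes, Mir107 took a middle place within this AGCAGC group and the Mir103 genes the last places among those detected. The share of stretches found once was 76.1% for Mir103-2, 82.1% for Mir103-1 and 86.8% for Mir107. It was 94.6% for Mir16-1, 94.7% for Mir16-2 and 100% for Mir322, Mir15a, Mir503, Mir15b and Mir195a. The places therefore need not be those of the mature miRNAs. The list was set by gene name and not by the motif. It leaves out the genes of miR-6342, miR-6353 and miR-6419, which also have the seed AGCAGCA. The list had 12 genes in the tables, of which 10 were detected, against 340 of 1973 genes overall (17.2%). Its share of all sense counts was 5.11% in the replicate 1 library, with a Wilson 95% interval of 5.09 to 5.14, and 5.25% in the other, with an interval of 5.24 to 5.27. The Pank intron genes made up 2.13% ± 0.0681 of the counts of the list (SD, n = 2).

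Mir322, a gene of the X chromosome whose miRNA slows the cell cycle of differentiating muscle cells, held most of the list with 42676 CPM in replicate 1 and 43562 in replicate 2. Without Mir322 the list held 0.873% ± 0.0360 of the sense counts (SD, n = 2). Mir15a, in an intron of Dleu2 and known for repression of the survival gene Bcl2, had 2433 and 3058 CPM. Mir503, a neighbour of Mir322, had 1988 and 1570.5 CPM. Mir16-1, within Dleu2, had 1471 and 1598 CPM. All 4 lay above Mir107 in both libraries.

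Mir15b, in an intron of the condensin gene Smc4, had 621 and 698 CPM, below Mir107 in both libraries. Mir195a had 480 and 508 CPM. Mir16-2, also in Smc4, had 414 and 402 CPM. These 3 lay between Mir107 and Mir103-2 in both libraries. Mir16-1 and Mir16-2 have an identical mature form, as the Mir103 genes do, so the same limit on reads common to both applies to their values.

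Of the 10 detected genes of the list, 5 were higher and 1 lower in replicate 2 past the threshold, and their median log2 ratio was 0.07 against 0.02 for all detected genes. The genes past it upward were Mir322, Mir15a, Mir16-1, Mir15b and Mir107. Over all detected genes, 25.3% were called higher and 25.6% lower. Mir503 was the gene called lower, with a log2 ratio of -0.34, while Mir15a had the highest ratio of the list, 0.33.

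The 2 undetected genes were Mir195b, with 0 and 1 sense counts, and Mir497b, with 0 and 2. Mir497b had 2663 and 3395 antisense counts, and it lies opposite Mir497, a gene with no row in the tables used here. No form of Mir497b begins with the motif, and it was listed by its name.

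**Figure D4:**
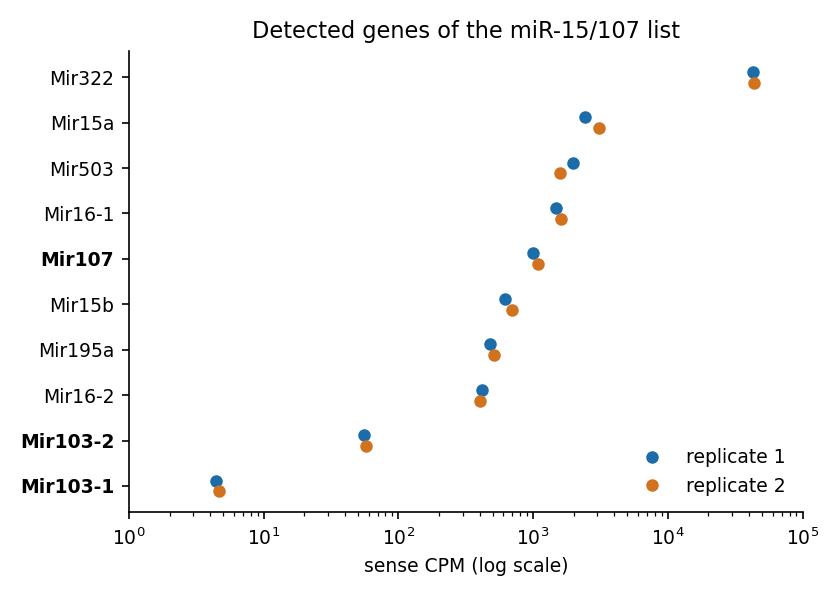
Sense CPM on a log axis for the 10 detected genes of the AGCAGC group, ordered by mean level, with 1 point for each library and the Pank intron genes in bold. Mir107 lies in the middle of the list at 1005 and 1083 CPM, and Mir103-2 and Mir103-1 take the lowest places. Levels are of reads assigned to genes, and the genes differ in the share of stretches found once.

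The genes nearest in level were taken by Euclidean distance of log2(CPM + 1) over the 2 libraries of 1 condition, so they show only which miRNAs had similar counts. For Mir107 they were Mir301, in an intron of Ska2, with 1073 ± 148 CPM, Mir125b-1 with 961 ± 43.9 CPM, and Mir96, a miRNA of sensory hair cells, with 1092 ± 215 CPM (SD, n = 2). For Mir103-2 they were Mir449a, a miRNA of multiciliated cells, with 57.4 ± 3.14 CPM, Mir301b with 53.2 ± 0.0351 CPM and Mir190a, in an intron of the talin gene Tln2, with 54.4 ± 5.22 CPM (SD, n = 2). For Mir103-1 they were Mir1968 with 4.79 ± 0.188 CPM, Mir7b with 4.70 ± 0.326 CPM and Mir551b with 4.15 ± 0.103 CPM (SD, n = 2).

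Mir33, in an intron of the sterol regulator gene Srebf2 and known to repress cholesterol export, is another miRNA within a gene of lipid metabolism. Its level was 45.7 CPM in replicate 1 and 48.9 in replicate 2, close to Mir103-2. The share of stretches found once was 100% for Mir33 and 76.1% for Mir103-2. Mir378a, of Ppargc1b, a gene of mitochondrial metabolism, has no row in the tables used here and gets no value.

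The labelled tissue was checked against miRNAs of cells that a limb holds. By mean CPM, the epidermal genes Mir203 and Mir205 had 72531 and 16206, the cartilage genes Mir140 and Mir455 had 43163 and 3424, and the endothelial Mir126a had 22336. The muscle genes Mir206 and Mir133b lay far apart at 7919 and 63.1 CPM. The Hox cluster genes ran from 8.94 CPM for Mir196a-1 to 40763 CPM for Mir196b, with Mir196a-2, Mir10a and Mir10b at 799, 3339 and 8209. The erythroid Mir451a and Mir144 had 332 and 85.0 CPM and the hepatocyte miRNA Mir122 71.8 CPM. The 3 neuronal Mir124a genes were at 0, but each has stretches of 20 bases in common with another precursor, and reads common to copies may be in no gene.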

How the data were processed

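Per the deposited README, the authors' tables are on assembly mm10 with annotation M4. The deposited values are raw read counts, 1 row for each miRNA gene. The columns have no header: from the values, column 2 is the sum of columns 3 and 4 for every gene, and these were read as counts on either strand, sense and antisense. Aligner and counter are not given in the sources used here. The libraries had 9187400 and 10851823 reads, of which 4263630 and 5151214 were sense counts. The read totals are sums of the gene counts and the separate lines, so they hold only if reads on those lines entered no gene.

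Symbols and positions came from GENCODE M21 (GRCm38), which matched 1894 of 1973 identifiers, and mature sequences from RefSeq (GRCm38.p6). CPM used the sense total. The binomial test (scipy 1.17.1, Python 3.11.15) was run on simulated counts that held counting noise alone, the noise the test assumes. That run checks the code and not how well the test suits these libraries. Library sizes from edgeR 4.0.16 and DESeq2 1.42.0 served as alternatives. Precursors were aligned globally with Biopython 1.88, with scores of 1 for a match. With 1 group, no quasi-likelihood test was possible. The libraries were not copies (chi-square of 57050 on 339 degrees of freedom over detected genes).

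Named genes are the 3 members, members of the AGCAGC group with a count, Mir33 and Mir378a, and the 3 genes nearest in level to each member. MiRNAs of limb cell types are named beside these. Members, lists and tests were chosen with earlier results of these data known.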

Additional observations from a re-analysis of the deposited data

How the results depend on the processing

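Over all reads of the library in place of the sense total, Mir103-1 had 2.14, Mir103-2 26.4 and Mir107 490.4 CPM, because the denominator is larger by construction. With counts irrespective of strand, Mir103-1 had 4.41 and Mir103-2 54.4 CPM, and the AGCAGC group held 5.07% of the counts. No antisense count was added to the 3 genes, so only the denominator changed. Under these settings, TMM and DESeq2 size factors, the log2 ratios kept their sign and their side of the threshold, with 0.11 to 0.14 for Mir107, 0.04 to 0.07 for Mir103-2 and 0.06 to 0.10 for Mir103-1. The adjusted p of Mir107 ranged from 4.4e-06 to 0.00118 over these and the count minimums. Between 167 and 184 genes were called. With no minimum this was 24.6% of 694 genes, and with at least 100 counts 67.6% of 247, a set that leaves out Mir103-1. With stretches of 18 and 22 bases, the share found once was 76.8% and 87.7% for Mir103-1, 68.1% and 84.6% for Mir103-2, and 81.4% and 92.4% for Mir107. Without 1 replicate each, the levels ran from 4.46 to 4.66, 55.6 to 57.1 and 1005 to 1083 CPM in the same order. No paired analysis was possible because the series has 1 group. Depth limits Mir103-1 most, and stretches were compared with miRNA precursors only, since no genome sequence was used here.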

Other observations

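Mir103-1 and Mir103-2 belong to a class of miRNA genes with a mature form that another gene also makes. By RefSeq sequences matched on symbol, 87 genes of the tables were in this class, and 43 of them were detected (49.4%). Their median was 56.3 CPM, which is the value of Mir103-2 itself. Of 829 genes whose mature forms are their own, 268 were detected (32.3%), with a median of 192 CPM. Genes without a RefSeq match are in neither class, and of all 1973 genes 17.2% were detected. The same matching found 33 pairs of genes named as copies 1 and 2 that share a mature form, and in 16 both copies were detected. Mirlet7a-1 and Mirlet7a-2, detected at mean levels of 288 and 295 CPM, are not among the pairs found. The list of pairs may therefore not be complete. Between the copies of these 16 pairs, the higher exceeded the lower by a median of 4.24-fold, from 1.17-fold for Mir138-1 and Mir138-2 to 89.3-fold for Mir196a-2 over Mir196a-1. Mir103-2 over Mir103-1, at 12.4-fold by mean CPM, was exceeded by 3 of these pairs: Mir196a, Mir181b at 39.0-fold and Mir92 at 36.7-fold. Mir199a, at 11.7-fold, came directly after, and in replicate 1 alone it was above, with 12.6-fold against 12.5-fold. The count minimum leaves out pairs with a low copy. Among the 23 pairs found that had a count in both copies, the median was 3.10-fold. Of these, 5 pairs exceeded Mir103, with Mir194 at 31.0-fold and Mir7 at 20.4-fold added. Mir138 and the others were named after their values were seen. What part of each ratio reflects the copies and what part the stretches of sequence they own was not tested.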
